A study of Mus musculus with 2 samples.

Results

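The 9 genes described here encode parts of the complement system and its regulators: C1qa, C1qb, C1qc, C3, C4b, Cfb, Cfi, Serping1 and Cd59a. They were chosen by symbol for what they encode, though with earlier results of these data known. All 9 were found among the 32285 gene features measured in a frozen section of mouse retina. Complement is a cascade of plasma and tissue proteins that tags cells and debris for removal. The classical pathway starts when C1q, assembled from A, B and C chains, binds a surface and C4 and then C3 are cleaved, while factor B drives the alternative pathway that amplifies C3 cleavage. C1 inhibitor, factor I and CD59 restrain the cascade at its start, at the level of C3 and C4 fragments, and at the membrane attack complex. In the mouse brain and retina, microglia are the known source of C1q.

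The data come from SeekSpace, in which nuclei of a section mounted on a chip are sequenced singly and placed by a spatial barcode. The labels describe 2 libraries of T1, 1 for expression and 1 for spatial barcodes, from 1 section of 10 µm taken from 1 eye of an untreated C57BL/6J mouse. The study compares heterozygous carriers of a missense allele of Prph2, a photoreceptor outer segment gene, with wild-type mice matched for age and sex, and its spatial data are from 6 months of age. The labels do not give T1 a genotype, so it belongs to no group, no genotypes are compared here and none was inferred from the values.

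The expression library held 17285 barcodes with 55843593 UMIs, a UMI being 1 counted RNA molecule, and a median of 1771 UMIs per barcode. After filtering, 16867 nuclei remained in 42 clusters, named from marker genes with the suffix "-like". Clusters without a clear name held 1606 nuclei. Besides the retinal classes, the section held nuclei with markers of fibroblasts, skeletal muscle, lens, fat, vessels, melanocytes and myelinating glia, so it extends beyond the labelled tissue. The nuclei lay in 4 separate pieces of tissue, numbered 1 to 4 along the chip, with 4457, 4145, 3695 and 4570 nuclei and median depths of 1886, 1797, 2284 and 1552 UMIs. Piece 4 stood apart from the others in RNA of the sex chromosomes: Xist was at 43.2, 59.0, 38.1 and 884 CPM (UMIs scaled to a common total) in pieces 1 to 4, and the Y-linked gene Uty at 94.0, 90.9, 91.8 and 18.9 CPM. The labels describe 1 eye, and they do not say what the pieces are. Levels of the main classes are therefore also given by piece, and levels without a piece are given for results that rest on it.

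The level of a gene in a class is its CPM over the pooled UMIs of all nuclei of the class, with an exact Poisson 95% interval. Shares of nuclei carry exact Clopper-Pearson 95% intervals. Both cover counting error only. There is 1 library, nuclei are not replicates, and no test between groups was possible, so values are set side by side without p-values. The term class-high is used for a gene whose interval in 1 class starts at or above 2 times the end of its interval in each of the other named classes of at least 50 nuclei. By this rule, 4 of the 9 genes were class-high: C1qa, C1qb and C1qc in microglia or macrophage-like nuclei and Serping1 in fibroblast-like nuclei. Over all genes with at least 20 UMIs, 2057 of 18217 (11.3%) were class-high. That share was not matched for UMI number, on which a call depends. C3, C4b, Cfb, Cfi and Cd59a had a highest class but no such margin.

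**Figure D1:**
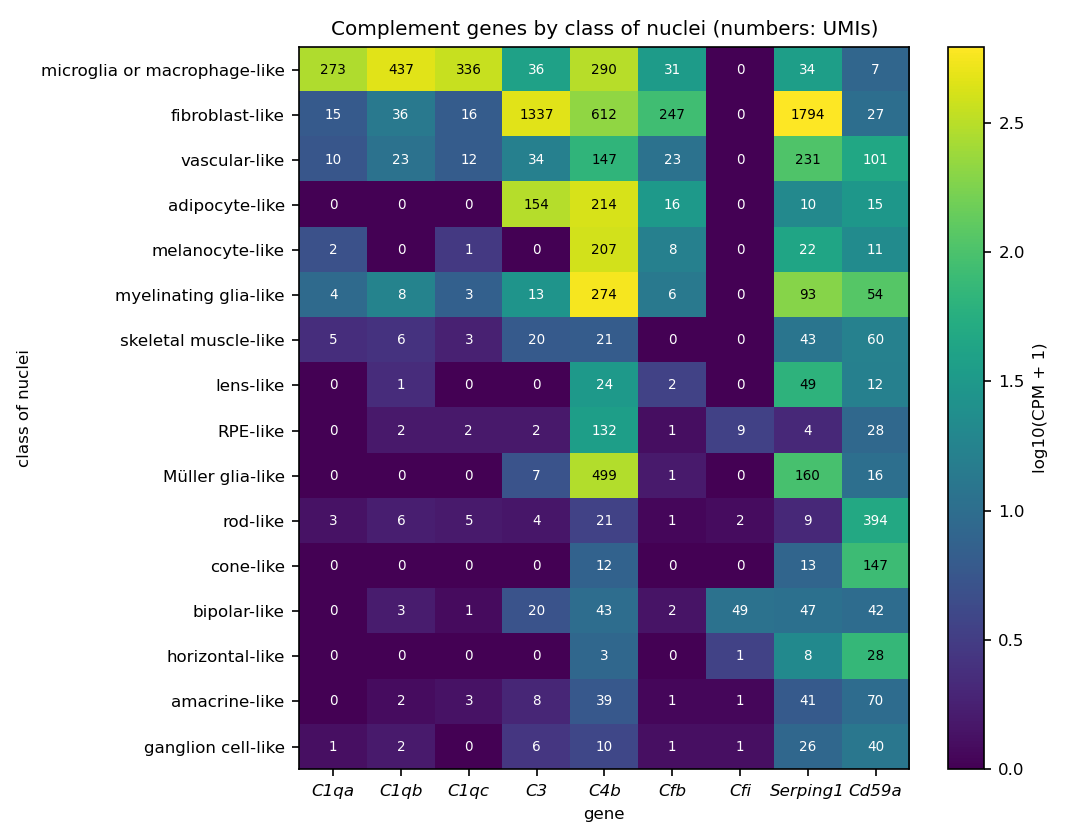
Level of each gene in each class of nuclei, as log10(CPM + 1) by colour, with the number of UMIs printed in each cell; the 16 classes run down the page and the 9 genes across it, and colours are read within a gene's column. C1qa, C1qb and C1qc share 1 bright row, C3 and Serping1 are brightest in fibroblast-like nuclei, and C4b is spread over many rows.

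The C1q chains were found almost wholly in the 424 microglia or macrophage-like nuclei. C1qa, which encodes the A chain, was at 290.4 CPM there (257 to 327, from 273 UMIs), and its next class, myelinating glia-like nuclei, was at 8.32 CPM from 4 UMIs. C1qb, the B chain, was at 465 CPM (422 to 511, from 437 UMIs), with 16.6 CPM in myelinating glia-like nuclei. C1qc, the C chain, was at 357 CPM (320 to 398, from 336 UMIs), with 6.24 CPM in myelinating glia-like nuclei. Below this class, the intervals of myelinating glia-like, fibroblast-like and vascular-like nuclei overlapped for C1qb. Of all UMIs of each gene, 85.6% for C1qa, 82.0% for C1qb and 87.0% for C1qc fell in this class. The 3 genes together reached 1113 CPM (1046 to 1182) in it, against 31.2 CPM in myelinating glia-like, 23.1 CPM in fibroblast-like, 20.3 CPM in vascular-like and 1.68 CPM in rod-like nuclei. In the 583 Müller glia-like nuclei, the main glia of the retina, no UMI of any of the 3 genes was found, which allows a level of up to 1.78 CPM by a floor of 3 counts.

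The 3 genes lie side by side on chromosome 4 within 18.7 kb, in RefSeq's annotation of GRCm38.p6: C1qb at chr4:136880126-136886200, C1qc at chr4:136889801-136892936 and C1qa at chr4:136895916-136898844. The promoter windows of C1qb and C1qc, from 250 bases before to 50 bases after the RefSeq start, are shown because these genes had the same pattern over classes. The window of C3 is shown beside them as a complement gene with another pattern. All 3 windows are on the minus strand and are printed 5′ to 3′ in the gene's direction, from RefSeq, at chr4:136886151-136886450 for C1qb, chr4:136892865-136893164 for C1qc and chr17:57228087-57228386 for C3. Capitals mark matches to motifs searched on both strands.
C1qb: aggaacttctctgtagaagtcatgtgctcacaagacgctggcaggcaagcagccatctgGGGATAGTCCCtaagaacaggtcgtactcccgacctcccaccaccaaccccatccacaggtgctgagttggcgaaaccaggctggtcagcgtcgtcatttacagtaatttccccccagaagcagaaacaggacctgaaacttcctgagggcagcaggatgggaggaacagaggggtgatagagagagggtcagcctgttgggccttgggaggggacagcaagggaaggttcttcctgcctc
C1qc: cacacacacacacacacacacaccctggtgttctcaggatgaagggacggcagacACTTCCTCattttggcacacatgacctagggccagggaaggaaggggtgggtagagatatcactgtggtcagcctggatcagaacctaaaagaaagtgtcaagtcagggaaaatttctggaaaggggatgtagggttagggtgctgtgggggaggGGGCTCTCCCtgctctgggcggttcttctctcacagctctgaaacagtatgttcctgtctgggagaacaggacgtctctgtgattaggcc
C3: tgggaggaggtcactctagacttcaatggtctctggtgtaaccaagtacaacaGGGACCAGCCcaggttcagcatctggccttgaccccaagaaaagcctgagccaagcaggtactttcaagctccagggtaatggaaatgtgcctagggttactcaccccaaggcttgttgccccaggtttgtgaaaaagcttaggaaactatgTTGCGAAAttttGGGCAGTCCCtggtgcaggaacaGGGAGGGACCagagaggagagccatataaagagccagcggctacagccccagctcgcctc
The PU.1 motif GAGGAAGT, of a factor of macrophages and microglia, was found once, in C1qc, as its reverse complement ACTTCCTC at position -195 from the start. It occurs in 3.20% of 32851 mouse promoters of the same length. The NF-kB motif (GGGA, 4 free bases, then CC) matched C1qb at -191, overlapped there by a match on the opposite strand at -190, C1qc at -40, and C3 at -197, -33 and -10. This motif is in 20.7% of all promoters. The C/EBP motif TTGCNNAA was found in C3 at -45 and in 10.8% of promoters. In Cd59a, the other gene whose window was searched, the interferon response motif (GAAA, 2 free bases, then GAAA) was found at -187, and it is in 3.44% of promoters. Neither the PU.1 with IRF motif (GGAA, 2 free bases, then GAAA, in 2.72% of promoters) nor the STAT motif TTCNNNGAA (8.30%) occurred in these 4 windows. A match is a description of letters and not a site. Promoters of C1qa, C4b, Cfb, Cfi and Serping1 were not used here.

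At the level of single nuclei, 50.9% of microglia or macrophage-like nuclei (46.1 to 55.8%) held at least 1 UMI of a C1q gene, against 2.43% of fibroblast-like nuclei and 0.238% of rod-like nuclei (14 of 5875). Their median depths were 1684, 1448 and 1059 UMIs. With each nucleus thinned to 500 UMIs, which left out the shallower ones, 29.5% of 396 microglia or macrophage-like nuclei, 0.915% of fibroblast-like and 0.124% of rod-like nuclei held a C1q UMI. The share in microglia or macrophage-like nuclei was thus above that in rod-like nuclei, which should lack these genes, at equal depth too. The chains were often found in the same nucleus: 73 nuclei held UMIs of 1 of the 3 genes, 69 of 2 genes and 74 of all 3, and 208 held none. C1qa and C1qb were found together in 100 nuclei, C1qb and C1qc in 99, and C1qa and C1qc in 92. The genes whose levels over the 16 classes were most like those of the C1q chains, by Pearson r of log2(CPM + 1), were Laptm5 (0.99) and Mpeg1 (0.977) for C1qa, H2-Eb1 (0.977) and Trem2 (0.974) for C1qb, and Laptm5 (0.985) and Spi1 (0.981) for C1qc. C1qa and C1qc had an r of 0.987 with each other. These r values describe 16 classes of 1 library.

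C1q levels differed within the microglia or macrophage-like class. A sub-cluster of 94 nuclei carried 7 of 8 fixed border macrophage markers and was led by Lyve1 and Cd163. It had 694 CPM of C1qa (562 to 847), 1069 CPM of C1qb (904 to 1256) and 939 CPM of C1qc (785 to 1115). A sub-cluster of 49 nuclei carried all 6 parenchymal microglia markers, with 59.2% of its nuclei inside the retina. It had 560.3 CPM of C1qa (432 to 716), 727 CPM of C1qb (579 to 901) and 709 CPM of C1qc (563 to 881). Its intervals overlapped those of the border macrophage-like sub-cluster for C1qa and C1qc, but not for C1qb. Shares of nuclei with a UMI went the other way. They were 39.4%, 56.4% and 48.9% for C1qa, C1qb and C1qc in the border macrophage-like sub-cluster, at a median depth of 1231 UMIs. In the parenchymal microglia-like one they were 69.4%, 69.4% and 67.3%, at 2165 UMIs. In sub-cluster 4, 69 nuclei led by Fn1, Il1b and S100a9, C1qb and not its partners was close to the parenchymal microglia-like CPM. The levels there were 268 CPM of C1qa, 726 CPM of C1qb and 307 CPM of C1qc. Sub-cluster 5, 49 nuclei led by Gpnmb and Atp6v0d2, was lower, at 155 CPM of C1qa and 169.5 CPM each of C1qb and C1qc. In 45 nuclei led by the T cell genes Skap1 and Tcf7 and in 19 nuclei led by the B cell genes Pax5 and Cd79a, no C1q UMI was found. The class therefore holds other immune nuclei with it. Without the sub-clusters that had at least 2 leading lymphocyte or granulocyte markers, the summed C1q level was 1272 CPM, against 1113 CPM with them.

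**Figure D2:**
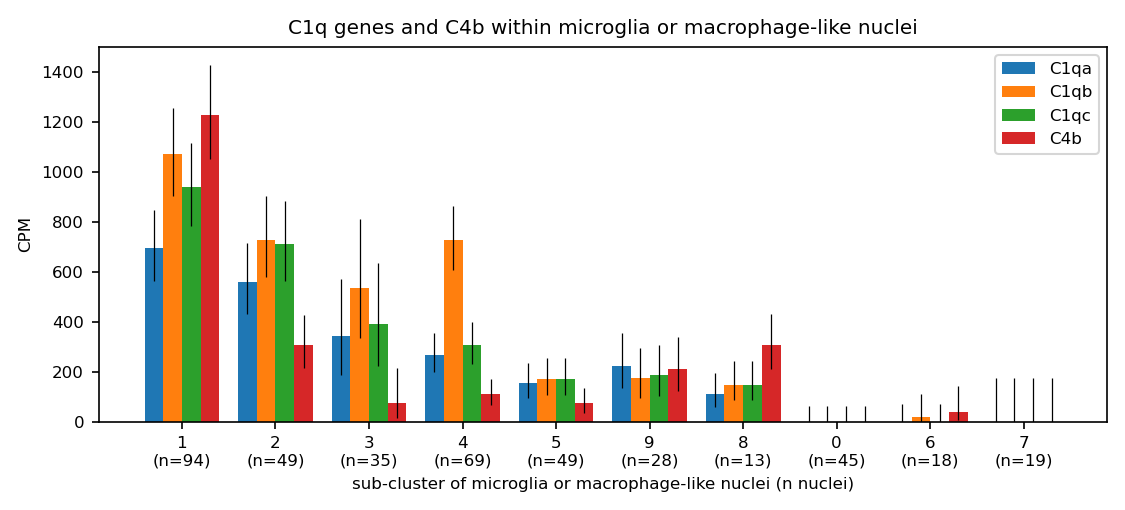
Level in CPM of C1qa, C1qb, C1qc and C4b in sub-clusters of the microglia or macrophage-like nuclei, with the number of nuclei under each. Bars are the levels over the pooled UMIs of a sub-cluster and lines the exact Poisson 95% intervals. Sub-cluster 10, with 5 nuclei, is not shown. Sub-cluster 1, with border macrophage markers, has the tallest C4b bar at 1228 CPM, and sub-clusters 0 and 7, led by lymphocyte genes, have no C1q bar.

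C4b, the mouse gene for complement C4, differed between these sub-clusters too. It was at 1228 CPM (1051 to 1427) in the border macrophage-like sub-cluster, which held 170 of the 290 C4b UMIs of the class, against 306 CPM in the parenchymal microglia-like one and 112 CPM in sub-cluster 4. C3 and Cfb lay elsewhere: sub-cluster 4 held 22 of the 36 C3 UMIs and 16 of the 31 Cfb UMIs. Of the 34 Serping1 UMIs of the class, 23 lay in sub-cluster 8, 13 nuclei led by Gm4876, Smoc1 and Clstn2. No parenchymal microglia or border macrophage marker led this sub-cluster. Its median depth was 3765 UMIs, against 1684 for the class.

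Place in the tissue was read from the neighbours of each nucleus: a nucleus counted as inside the retina when at least 10 of its 20 nearest nuclei were retinal neurons or Müller glia-like. The rule is rough, as 38.6% of skeletal muscle-like, 34.6% of fibroblast-like and 23.5% of adipocyte-like nuclei counted as inside. For microglia or macrophage-like nuclei the share was 34.9%. The 148 microglia or macrophage-like nuclei inside and the 276 outside had C1qa at 279 and 296 CPM, C1qb at 382 and 506 CPM, and C1qc at 327 and 372 CPM. C1q UMIs were found in 51.4% of those inside and 50.7% of those outside. Cfb had 2 UMIs (6.42 CPM) inside and 29 UMIs (46.2 CPM) outside, and C4b was at 208 CPM inside and 358 CPM outside. The differences in C1qb and Cfb rested on piece 4, which held 112 of the nuclei outside and 24 of the 31 Cfb UMIs. Without piece 4, C1qb was at 362 CPM inside and 355 CPM outside, Cfb had 2 UMIs (8.32 CPM) inside and 5 UMIs (13.3 CPM) outside, and C4b was at 233 CPM inside and 406 CPM outside. With at least 16 such neighbours for inside and at most 4 for outside, 19 and 62 nuclei of the class remained over all pieces. C1qa was then at 346 and 334 CPM, C1qb at 618 and 635, C1qc at 470 and 424, and C4b at 98.9 (4 UMIs) and 366 CPM. Of the 148 nuclei inside by the first rule, 29 were of the parenchymal microglia-like sub-cluster. Nuclei of this class counted as inside by that rule numbered 26, 44, 43 and 35 in pieces 1 to 4, or 0.783%, 1.52%, 1.44% and 1.17% of all nuclei inside.

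By piece, the summed C1q level of the class was 946 CPM (839.7 to 1062), 1015 CPM, 790.0 CPM (638 to 967) and 1448 CPM (1320 to 1585) in pieces 1 to 4. Piece 4 was highest, and its nuclei were the most numerous, 147, against 109, 99 and 69 in pieces 1 to 3. C1qb was at 366, 399.7, 269 and 669.7 CPM and C1qc at 323, 333, 319 and 419 CPM, so C1qb was the larger of them in each piece but piece 3. In the parenchymal microglia-like sub-cluster the summed level was 2440, 2071, 1941 and 1784 CPM, so piece 4 was not the highest there. In the border macrophage-like sub-cluster it was 3075, 1973, 1182 and 3364 CPM, with piece 4 highest and its interval overlapping that of piece 1. Sub-cluster 4, with 40 of its 69 nuclei in piece 4, had 8, 17, 2 and 206 C1q UMIs in the pieces. Without piece 4 the level of the class was 938 CPM. None of the C1q genes met the rule for a difference between pieces given below.

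**Figure D3:**
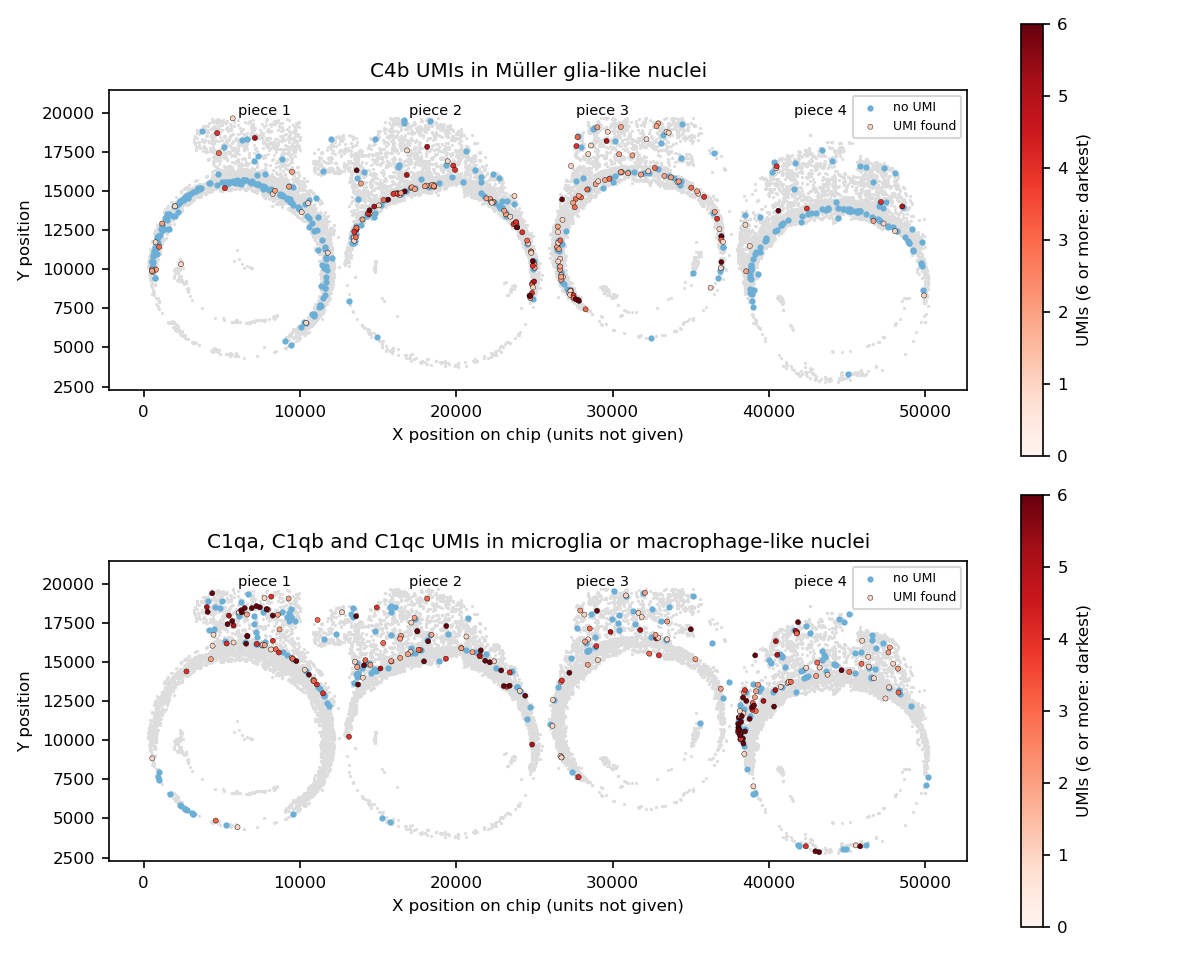
Position on the chip of Müller glia-like nuclei with their C4b UMIs (top) and of microglia or macrophage-like nuclei with their summed C1q UMIs (bottom); axes are chip positions in units not given, grey points are all other nuclei, and pale blue nuclei had no UMI. C4b UMIs are dense along the retina of pieces 2 and 3 and sparse in pieces 1 and 4, while C1q UMIs occur in all 4 pieces, inside and outside the retina.

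C4b was spread over many classes. This gene lies at chr17:34728139-34743902. In the classical pathway its product is cleaved by C1s to form part of the C3 convertase. Its level was highest in myelinating glia-like nuclei, 569.6 CPM (504 to 641), which was above the interval of the next class. Adipocyte-like nuclei at 420.2 CPM (366 to 480.4) and melanocyte-like nuclei at 401 CPM (349 to 460.0) did not differ beyond their intervals. Nor did microglia or macrophage-like nuclei at 309 CPM (274 to 346) and Müller glia-like nuclei at 296 CPM (270.2 to 323). Fibroblast-like nuclei followed at 211 CPM, then vascular-like at 66.5, RPE-like at 36.2, lens-like at 30.9, bipolar-like at 8.95 and rod-like nuclei at 2.51 CPM. Müller glia-like nuclei held 499 C4b UMIs, found in 33.3% of them. Unnamed nuclei, 90.0% of them inside the retina, held 612 more, of which 287 lay in an unnamed cluster with astrocyte markers and 306 in another with bipolar and Müller markers. The paralogue C4a lies on the same chromosome, and the treatment of reads that fit both genes is not stated. No C4a UMI was found in Müller glia-like nuclei.

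C4b in Müller glia-like nuclei differed widely between the pieces. It was at 76.8 CPM (55.6 to 103), 537 CPM (470.3 to 611), 468 CPM (404 to 539) and 115 CPM (78.9 to 161) in pieces 1 to 4, from 43, 231, 192 and 33 UMIs in 198, 140, 130 and 115 nuclei. Pieces 2 and 3 were high, pieces 1 and 4 were low, and the intervals of these pairs did not meet. Piece 2 was 7.0 times piece 1 (exact 95% interval of the ratio 5.04 to 9.93). Median depths of the class were 2940, 3156, 3211 and 2455 UMIs, and thinned to 500 UMIs per nucleus the ratio was 10.2, with a lower bound of 3.99. The contrast of pieces 2 and 3 with piece 1 does not involve piece 4. Pieces 1 to 3 had overlapping intervals in Uty, but Xist was higher in piece 2, at 59.0 CPM (55.0 to 63.3). It was at 43.2 CPM (39.8 to 46.7) in piece 1 and 38.1 CPM (35.0 to 41.4) in piece 3. The labels do not say what these pieces are, and the cause of the contrast was not tested. In the high pieces the UMIs were spread over many nuclei: nuclei without a C4b UMI numbered 175, 62, 50 and 102, and nuclei with at least 3 numbered 5, 36, 25 and 5. The 5 nuclei with most C4b held 44.2%, 16.5%, 20.3% and 69.7% of the UMIs of their piece. When each piece was divided into quadrants, those of pieces 2 and 3 ranged from 301 to 598 CPM and those of pieces 1 and 4 from 27.6 to 256 CPM. Over all pieces, the 518 Müller glia-like nuclei inside the retina and the 65 outside it had 293 and 319 CPM of C4b.

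Piece-variable is used in a like sense: within a class with at least 20 UMIs of the gene, the interval in the highest piece starts at or above 2 times the end of the interval in the lowest piece. Of 50 pairs of member and class that could be read, 13 were called, in 4 of the genes (C3, C4b, Cfb and Serping1). Over all genes and named classes, 1817 of 135951 pairs (1.34%) were called. The shares of all genes given here cover all pairs with at least 20 UMIs. They were not matched for UMI number, on which a call depends. No member was called in 8 classes, where the share of all genes called was 0.246% (amacrine-like), 0.67% (cone-like), 0.323% (ganglion cell-like), 0.787% (horizontal-like), 0.577% (melanocyte-like), 0.705% (rod-like), 3.79% (skeletal muscle-like) and 1.74% (vascular-like). In Müller glia-like nuclei both genes that could be read, C4b and Serping1, were called, against 0.416% of all genes in that class. Serping1, which encodes the C1 inhibitor that blocks C1r and C1s, was there at 44.6, 112, 175 and 52.1 CPM in pieces 1 to 4 (25, 48, 72 and 15 UMIs). Pieces 2 and 3 were again the higher ones, with piece 3 at 3.93 times piece 1 (2.46 to 6.46), though the intervals of pieces 2 and 4 overlapped.

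Pieces 2 and 3 were also the higher ones for C4b in RPE-like and bipolar-like nuclei. In RPE-like nuclei, of the pigment epithelium behind the photoreceptors, C4b was at 3.43, 50.4, 88.0 and 2.94 CPM in pieces 1 to 4, from 3, 38, 88 and 3 UMIs, where 1.08% of all genes were called. These UMIs lay in 26 nuclei of piece 2 and 38 nuclei of piece 3. Without piece 3 the level of the class was 16.6 CPM, against 36.2 CPM with it. Bipolar-like nuclei had 1, 25, 14 and 3 C4b UMIs, at 0.685, 23.0, 12.2 and 2.70 CPM, where 0.244% of genes were called. The 25 UMIs of piece 2 lay in 12 nuclei, with 8 of them in 1 nucleus, and the 14 of piece 3 in 11 nuclei. The level of the class was 4.84 CPM without piece 2, against 8.95 CPM with it. An unnamed cluster of 85 nuclei led by Gfap, Pax2 and Gja1, with all 7 astrocyte markers but a second marker list too close for a name, had 763 CPM of C4b (677 to 856). Its C4b was at 338, 797, 1120.45 and 141 CPM in pieces 1 to 4. Amacrine-like nuclei, with 7, 18, 14 and 0 C4b UMIs, were also highest in pieces 2 and 3. So were vascular-like nuclei, at 63.4, 98.2, 71.1 and 34.2 CPM, and C4b was called in neither class. Several other classes had another order. Microglia or macrophage-like nuclei had 425, 333, 126 and 251 CPM, highest in piece 1 and lowest in piece 3, and fibroblast-like nuclei, described further on, were highest in piece 4. Melanocyte-like nuclei had 433, 425, 280.3 and 433 CPM, and myelinating glia-like nuclei 349, 566, 669.6 and 853 CPM. C4b was not called in microglia or macrophage-like, melanocyte-like or myelinating glia-like nuclei.

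Other genes of glial reactivity were read beside C4b in the same nuclei. Of 10 listed, 8 could be read in Müller glia-like nuclei and 2 were piece-variable. Gfap, an intermediate filament of reactive glia, was at 10.7, 97.7, 53.6 and 34.7 CPM in pieces 1 to 4, and A2m, a protease inhibitor, at 48.2, 249, 185 and 59.0 CPM. Both were highest in piece 2, then piece 3. Stat3 was at 111, 288, 231 and 146 CPM, and Osmr at 87.5, 200.1, 222 and 118 CPM. The protease inhibitor Serpina3n was at 23.2, 86.1, 70.6 and 55.6 CPM, and Cebpd at 26.8, 72.1, 36.5 and 59.0 CPM. Vim, at 152, 168, 178 and 239.6 CPM, and Lifr, at 75.0, 48.9, 68.2 and 76.4 CPM, were highest in piece 4. None of these genes was called. The summed level of 7 astrocyte markers in these nuclei was 171, 291, 285 and 201 CPM, that of the microglia markers 23.2, 41.9, 41.4 and 24.3 CPM with 5 of 12 markers at 0, and that of the Müller markers 17649, 16399, 15207 and 17337 CPM. The astrocyte and microglia sums were higher in pieces 2 and 3 too, and their part in the C4b values was not tested. In RPE-like nuclei, 2 of 7 readable reactivity genes were piece-variable: A2m at 324, 993, 1476 and 421 CPM, and Serpina3n with 3, 7, 54 and 3 UMIs. Of those not called, Vim was highest in piece 4 and lowest in piece 3, at 32.1, 23.9, 19.0 and 56.8 CPM. Stat3 was at 93.9, 194, 165 and 88.1 CPM, and Osmr at 212, 360, 486 and 256 CPM. Lifr was at 24.0, 27.9, 27.0 and 20.5 CPM, and Cebpd had 1, 7, 13 and 7 UMIs.

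**Figure D4:**
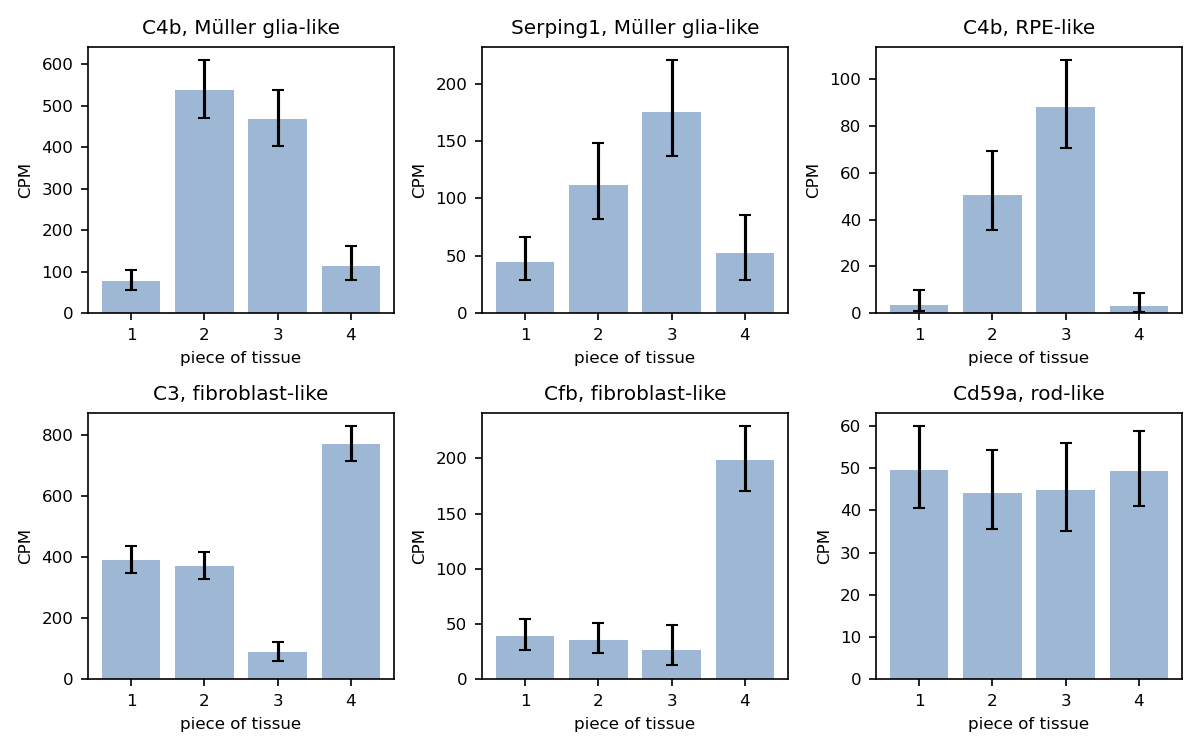
Level in CPM in pieces 1 to 4 of 6 pairs of gene and class, each on an axis of its own that starts at 0; bars are class totals of a piece and lines exact Poisson 95% intervals. C4b and Serping1 in Müller glia-like nuclei and C4b in RPE-like nuclei are highest in pieces 2 and 3, C3 and Cfb in fibroblast-like nuclei are highest in piece 4, and Cd59a in rod-like nuclei has overlapping intervals in all pieces.

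C3, the protein on which all complement pathways meet, lay mainly outside the neural retina. The gene, at chr17:57203967-57228136, was at 462 CPM (437 to 487, from 1337 UMIs) in the 1562 fibroblast-like nuclei and at 302 CPM (257 to 354) in the 260 adipocyte-like nuclei. Microglia or macrophage-like nuclei were far lower at 38.3 CPM (26.8 to 53.0), and myelinating glia-like nuclei at 27.0 CPM did not differ from them beyond the intervals. Fibroblast-like nuclei held 76.4% of the 1750 C3 UMIs. Their place above adipocyte-like nuclei rested on piece 4: without it, C3 was at 325 CPM (300.2 to 351) in fibroblast-like nuclei and at 469 CPM (385 to 566) in adipocyte-like nuclei. In the neural retina C3 was at 4.15 CPM in Müller glia-like nuclei from 7 UMIs, and at 4.16 CPM in bipolar-like nuclei from 20 UMIs, 19 of which came from 1 nucleus of piece 2. C3 was called piece-variable in bipolar-like nuclei on that nucleus. The unnamed cluster led by Gfap and Pax2 had 260.5 CPM (211 to 317, from 98 UMIs), at 215, 247, 373 and 0 CPM in pieces 1 to 4. Genes of most similar pattern to C3 over the classes were Svep1 (r = 0.934), Dpt (0.919) and Twist2 (0.917).

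Cfb encodes factor B, the serine protease of the alternative pathway, and lies at chr17:34856374-34862514, 87 bases from C2. Its level was 85.3 CPM (75.0 to 96.6) in fibroblast-like nuclei. Microglia or macrophage-like nuclei at 33.0 CPM (22.4 to 46.8) and adipocyte-like nuclei at 31.4 CPM (18.0 to 51.0) came next and did not differ beyond their intervals. Fibroblast-like nuclei held 71.2% of the 347 Cfb UMIs, and Müller glia-like nuclei held 1 UMI. Piece 4 gave 177 of the 247 Cfb UMIs of fibroblast-like nuclei. Without it Cfb was at 35.0 CPM (27.3 to 44.2) in them, 11.3 CPM (4.56 to 23.4) in microglia or macrophage-like nuclei and 52.1 CPM (26.9 to 91.0) in adipocyte-like nuclei, so fibroblast-like nuclei were then not the highest class, with overlapping intervals.

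Serping1 alone among the 3 genes highest in fibroblast-like nuclei met the class-high rule. It lies at chr2:84765360-84775444 and was at 619.7 CPM (591 to 649) in fibroblast-like nuclei, where 45.8% of nuclei held a UMI, against 193 CPM (156 to 237) in myelinating glia-like nuclei. Vascular-like nuclei at 104 CPM (91.4 to 119) and Müller glia-like nuclei at 94.8 CPM (80.6 to 110.6) did not differ beyond their intervals. RPE-like nuclei were at 1.1 CPM, from 4 UMIs. Without piece 2, Serping1 was no longer class-high.

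Within the fibroblast-like class, C3 and Cfb marked 1 cluster and Serping1 did not. Cluster 22, 681 nuclei led by Pi16, Col3a1 and Tnxb, held 95.1% of the C3 UMIs and 90.7% of the Cfb UMIs of the class, at 1048 CPM (991 to 1107) and 185 CPM. Cluster 8, 737 nuclei led by Ccn2 and Fbn2, had 43.9 CPM of C3, and cluster 23, 144 nuclei led by Col12a1 and Angptl7, had 8.1 CPM. Serping1 was at 878 CPM in cluster 22, 365 CPM in cluster 8 and 829 CPM in cluster 23. C4b was at 344 CPM in cluster 22 and 134 CPM in cluster 8. None of the 9 genes was used to form the clusters. By place, the 541 fibroblast-like nuclei counted as inside the retina, by a rule that is rough at its edges, and the 1021 outside had C3 at 229 and 572 CPM, Cfb at 22.6 and 115 CPM and Serping1 at 463 and 694 CPM. Without piece 4 these were 205 and 391 CPM for C3, 27.9 and 38.9 CPM for Cfb, and 475 and 600.3 CPM for Serping1.

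Fibroblast-like nuclei also differed between pieces, in another order than Müller glia-like nuclei. C3 was at 389.7 CPM (348 to 435), 369.9 CPM, 87.2 CPM (60.0 to 122) and 769 CPM (713 to 829) in pieces 1 to 4, and Cfb at 38.6, 35.2, 26.4 and 198 CPM. C4b followed with 193, 151, 87.2 and 335 CPM. All 3 were highest in piece 4 and lowest in piece 3, with ratios of 8.82 (6.22 to 12.9) for C3, 7.5 (3.98 to 15.9) for Cfb and 3.84 for C4b, and all 3 were called, where 2.1% of genes in that class were. Serping1, at 688, 506, 369.9 and 764 CPM, was not called. Cluster 22 made up 42.1%, 41.7%, 34.3% and 52.0% of fibroblast-like nuclei in the pieces. Within that cluster alone C3 was at 941, 873, 207 and 1448 CPM and Cfb at 76.4, 65.4, 51.8 and 372 CPM, so the order of pieces was the same at a fixed cluster. The 177 Cfb UMIs of piece 4 came from 39 nuclei. Piece 4 is the one that stood apart in Xist and Uty, and the levels of C3 and Cfb without it are given above.

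Adipocyte-like nuclei gave a further order. C3 was at 384, 645, 187 and 165 CPM and C4b at 186, 832, 234 and 358 CPM in pieces 1 to 4, from 30, 53, 25 and 152 nuclei, so both were highest in piece 2. Both were called, where 2.78% of genes were. The remaining calls for Serping1 rested on few nuclei, in classes where 1.96% (lens-like), 3.06% (microglia or macrophage-like) and 3.15% (myelinating glia-like) of all genes were called. In myelinating glia-like nuclei, 55, 24, 5 and 9 UMIs were found in pieces 1 to 4, the 55 in 7 nuclei with 23 of them in 1 nucleus. In lens-like nuclei the counts were 4, 3, 17 and 25, and in microglia or macrophage-like nuclei 26, 0, 1 and 7, the 26 in 8 nuclei. Without piece 1, Serping1 was at 105 CPM in myelinating glia-like and 12.6 CPM in microglia or macrophage-like nuclei, and without piece 4 it was at 36.4 CPM in lens-like nuclei.

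Cfi and Cd59a encode regulators further down the cascade. Cfi, at chr3:129836727-129875332, encodes factor I, a serine protease best known from liver and plasma that cuts C3b and C4b. It was sparse, with 91 UMIs in all kept nuclei, of which 49 lay in 40 bipolar-like nuclei, at 10.2 CPM (7.54 to 13.5). Next were horizontal-like nuclei at 2.52 CPM from 1 UMI and RPE-like nuclei at 2.47 CPM (1.13 to 4.68) from 9 UMIs. Most classes, Müller glia-like and microglia or macrophage-like among them, had 0 UMIs. Within the bipolar-like class 47 of the 49 UMIs lay in cluster 29, whose 471 nuclei had Trpm1, Car8 and Prkca, genes known from rod bipolar cells, among their leading genes, at 29.0 CPM (21.3 to 38.6). They were spread over the pieces as 16, 11, 10 and 10 UMIs. An unnamed cluster of 369 nuclei with bipolar and Müller markers held 26 further Cfi UMIs, 19 of them in piece 3.

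Cd59a encodes a membrane-anchored protein that blocks assembly of the membrane attack complex, and lies at chr2:104095753-104115410. Its highest level was in myelinating glia-like nuclei, 112 CPM (84.3 to 146.5), and cone-like nuclei at 80.9 CPM (68.3 to 95.1) and horizontal-like nuclei at 70.7 CPM (47.0 to 102) did not differ from it beyond the intervals. Rod-like nuclei were at 47.2 CPM (42.6 to 52.1) and, being the most numerous, held 32.2% of its 1225 UMIs. Vascular-like nuclei were at 45.7 CPM (37.2 to 55.5), and Müller glia-like nuclei at 9.48 and microglia or macrophage-like nuclei at 7.45 CPM were low. No class met the piece-variable rule for Cd59a. Rod-like nuclei had 49.6, 44.2, 44.7 and 49.3 CPM, vascular-like nuclei 49.5, 43.3, 46.7 and 44.0 CPM in pieces 1 to 4, and the intervals of each class overlapped. Cone-like nuclei had 108, 60.6, 98.5 and 76.8 CPM, with piece 1 at 1.79 times piece 2 (1.09 to 2.89). Amacrine-like nuclei had 7.9, 8.27, 6.92 and 14.4 CPM, with piece 4 at 2.08 times piece 3 (1.03 to 4.20). Its neighbour and paralogue Cd59b reached at most 17.7 CPM, in adipocyte-like nuclei from 9 UMIs.

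The wider pathway was read from a list of 52 other complement genes, of which 51 were among the features and 32 had at least 20 UMIs. Of these, 14 were class-high, with the share over all genes at 11.3% as above. Microglia or macrophage-like nuclei were the highest class for 8 of them: the lectin gene Fcna at 39.4 CPM, the C3a receptor C3ar1 at 150.0, the complement receptor chains Itgam, Itgax and Itgb2 at 423, 105 and 340.4, the terminal component C6 at 40.4, the C5a receptor C5ar1 at 104, and properdin, Cfp, at 75.5 CPM. These are mostly receptors, in the class that also held C1q. Fibroblast-like nuclei were highest for C1ra, the protease C1r, at 156 CPM and for the terminal component C7 at 36.6 CPM. Cfd, factor D and a known product of fat, was at 1422 CPM in adipocyte-like nuclei, and C2, the protease partner of C4b, at 429 CPM in melanocyte-like nuclei, against 62.5 CPM in fibroblast-like nuclei. Between pieces, 11 of 163 readable pairs of these genes and classes were called, against 1.34% of all pairs. C7 in fibroblast-like nuclei was at 76.0, 32.7, 29.1 and 6.72 CPM in pieces 1 to 4, an order unlike that of C3, and Itgam in microglia or macrophage-like nuclei at 208, 313, 277 and 747 CPM was highest in piece 4.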

How the data were processed

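One expression library and its spatial-barcode library were read. The deposited matrix of expression holds raw UMI counts, whole numbers per gene and barcode. The deposited table of positions gives each barcode an X and a Y value in other units, with no stated length. Per the submitters' processing notes, the tools were Seurat 4.1.1, STAR and fastp, and the build was mm10. Not given in the sources used here are their roles, the strand setting and the treatment of introns and of reads shared by paralogues.

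Nuclei with at least 200 genes and under 10% mitochondrial UMIs were kept (328 barcodes had fewer genes, and 418 were removed in all). Counts were normalised to 10000 and log-transformed. The 2000 most variable genes, without the 20 complement genes among them, 30 components, 15 neighbours and Leiden resolution 1 gave the clusters. Scrublet marked 0 nuclei, and a share under 0.5% was taken as failure, so doublets remain. A cluster was named when at least 4 markers of a fixed list led it, its best score was at least 0.7 and the second list was at most 0.55 of the best. These limits were set after seeing the data, and were first 3 markers and 0.5. A class needed 50 nuclei to be compared. Depth per nucleus had a median of 1811 UMIs after filtering.

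The samples have no group, no groups were compared and no p-value was computed. The members and gene lists were chosen with earlier results of these data known. Other complement genes were named when class-high or piece-variable, at most 12, those with the largest ratio to the next class first. Genes of similar pattern were the leading ones by Pearson r among genes with at least 100 UMIs, with a pseudocount of 1 CPM. The class-high and piece-variable calls were tested on simulated class and piece totals with known changes. Those totals had no clumping of UMIs in single nuclei, so calls that rest on 1 nucleus could not be judged by them. RefSeq on GRCm38.p6 gave gene positions and promoters, matched by symbol for 9 of 9 genes, with a promoter entry for 4. Scripts ran in python 3.11.15 with scanpy 1.11.5 and anndata 0.12.19 for clustering, igraph 0.11.9 and scikit-learn 1.9.0 beneath it, scipy 1.17.1 for intervals, pandas 2.3.3 and numpy 2.4.6 for tables, and matplotlib 3.10.9 for figures. Alternatives tried were stricter filters, thinning to 500 UMIs, other resolutions, other totals, exclusion of high doublet scores and exclusion of each piece.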

Additional observations from a re-analysis of the deposited data

Results flagged for a closer look

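The 418 barcodes removed by the filter, which no level above uses, held 1219561 UMIs, and 5 of the 9 genes had more than 3 UMIs among them, the limit that a count of 0 allows. C1qc had 4 UMIs there, C3 had 20, C4b had 16, Serping1 had 30 and Cd59a had 18. These barcodes were given no class.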

How the results depend on the processing

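Of 70 values recomputed under alternatives, 43 moved by less than their counting interval, or by under 1.5 times for a count, and 27 moved further. The count of class-high genes was 4 and was 3 to 5 under the alternatives other than thinning to 500 UMIs, where 1 gene (C1qb) was called. With the adipocyte-like cluster left unnamed, an alternative chosen after seeing the data, C3 was class-high as well. The summed C1q level in microglia or macrophage-like nuclei (1113 CPM) was 1015 CPM thinned, 1309 at resolution 2, 1264 with totals without mitochondrial genes and Gm42418, 1204 without the 5% of highest Scrublet scores, 1192 without piece 1, 938 without piece 4, and 1272 without sub-clusters led by lymphocyte or granulocyte markers, the last also chosen after seeing the data. C3 in fibroblast-like nuclei (462 CPM) was 411 CPM as a mean over nuclei, 529 with the reduced totals, and 491, 497, 518 and 325 without pieces 1, 2, 3 and 4. Serping1 in these nuclei (619.7 CPM) was 528 thinned, 567 as a mean, 710.2 with the reduced totals, 657 without high Scrublet scores, and 663, 657 and 555 without pieces 2, 3 and 4. C4b in Müller glia-like nuclei (296 CPM) was 242 thinned, and 404, 213, 240.2 and 333 without pieces 1, 2, 3 and 4. Its ratio of the highest to the lowest piece (7.0) was 10.2 thinned and 6.89 to 9.74 otherwise. Thinning and leaving out a piece reduce the nuclei or UMIs read by construction. The cause of the moves in level was not tested for any setting. C4b has no value at resolution 0.5, where Müller glia-like nuclei formed no cluster of that name, and class-high calls were not computed for means over nuclei. No paired analysis was possible because no groups are given. Levels of single genes without a piece, and by place without piece 4, were also computed after seeing the data. Depth limits Cfi most, with 91 UMIs in all.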
